A study of Mus musculus with 8 samples.

Results

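The 10 genes described here encode hormones and secretory granule proteins of enteroendocrine cells, the scattered hormone-making cells of the gut lining: Gcg, Pyy, Insl5, Cck, Sst, Nts, Sct, Tph1, Chga and Chgb. They were taken by gene symbol from a table of 18806 genes, all 10 were found in it, and all 10 had enough counts to be tested. Colon RNA came from 8 mice given DSS (dextran sulfate sodium), a compound used to injure the lining and set off colitis. The DSS group held 4 of them, and the other 4, the DSS+AP group, also received the gut bacterium Alistipes putredinis (AP). All 8 mice received DSS, no colon without DSS was analysed, and strain, age, doses, days and the stretch of colon taken are not given in the sources used here. Mice were drawn at random within each group, with 1 library per mouse. The study's title speaks of protection from colitis, and the comparison asks how transcripts of hormone cells differed when the bacterium was given.

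Enteroendocrine cells sense nutrients and microbial products in the lumen and release peptides and serotonin onto nerves, vessels and neighbouring cells. L cells of the colon process the Gcg product into glucagon-like peptides and also make peptide YY, joined in the distal colon by insulin-like peptide 5. Enterochromaffin cells make serotonin, D cells make somatostatin, and neurotensin and secretin are mostly hormones of more proximal gut. Chromogranins are acidic proteins packed into the dense-core granules of all these cells and of many neurons.

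Stretches of sequence near the start are shown for 4 of the genes because they carry textbook control elements of hormone genes and belong to genes with unlike results below. The search covered the 250 bases before each start in the RefSeq promoter table (GRCm38.p6), where all 10 genes matched with 13 windows, on both strands. The cyclic AMP response element, spelled TGACGTCA, was found in 2 of the 13 windows, those of Sst and Chgb, and in 1.55% of all 32851 windows. The E-box CATCTG, a site type bound by factors such as NEUROD1 and reading CAGATG on the other strand, was found in 4 of the 13 windows, those of Gcg, Insl5, Sct and Cck, and in 14.4% of all windows. The letters of the 2 motifs do not overlap. Each stretch is written 5′ to 3′ on the gene's strand, with the motif in capitals. Distances are to the start in the RefSeq promoter table, which is 23890844 for Sst and 132781642 for Chgb. The elements lie 48 bases before it for Sst and 72 for Chgb, the E-boxes 139 and 83 bases before it for Gcg and 30 for Cck. Annotated starts differ: GENCODE M21 begins Sst 114 bases and Chgb 364 bases further upstream and places both elements in an exon, so only 11 bases are shown on each side of them, and RefSeq's whole span of Sst reaches further still.
Sst, minus strand, chr16:23890874-23890903: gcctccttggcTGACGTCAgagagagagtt
Chgb, plus strand, chr2:132781559-132781588: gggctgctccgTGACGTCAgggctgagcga
Gcg, minus strand, chr2:62483716-62483807: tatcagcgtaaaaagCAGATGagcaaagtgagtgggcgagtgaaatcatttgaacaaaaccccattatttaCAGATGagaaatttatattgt
Cck, minus strand, chr9:121495704-121495739: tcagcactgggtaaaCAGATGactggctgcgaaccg
Sst and Chgb share the full element, and only Sst passed the test of expression below. Gcg and Cck share the E-box, and neither passed. A match of letters is a description of these windows and not a measured binding site.

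Total estimated counts per library lay between 16089081 and 17104290. Levels are given as CPM, counts per 1000000 of each library's total over the tested genes after that total was multiplied by its TMM scaling factor, and 3 counts, taken as the floor of detection, equal 0.167 to 0.186 CPM. Library DSS 4 stood apart by transcripts of exocrine pancreas, whose listed genes summed to 14459 CPM there and to 31.0 to 55.0 CPM in the other 7 libraries. Amylase Amy2a5 alone was at 8710 CPM in DSS 4 and at no more than 0.372 CPM elsewhere. The insulin gene Ins1 was at 0 counts in all 8 libraries. The islet hormone gene Ppy, looked up after the pancreas genes were seen, was at 19.1 CPM in DSS 4, at 4.18 to 9.23 CPM in the other DSS libraries and at 1.24 to 2.52 CPM in DSS+AP. With all libraries it was lower in DSS+AP, at -2.36 on the log2 scale (adjusted p by edgeR = 0.00806). Every DSS+AP library was below every DSS library, also below those without the pancreas transcripts. Gcg, Sst and Pyy are also islet genes, so their results are given without DSS 4 as well. Library DSS+AP 2 differed from its group in most of the 10 genes.

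Somatostatin and peptide YY transcripts fell in DSS+AP colon, each to about 0.4 of its DSS level, and none of the 10 genes rose past the threshold. The remaining genes had overlapping groups. Highest and lowest libraries differed most for Insl5 (46.2-fold), Nts (38.8-fold) and Sct (13.8-fold). By edgeR's quasi-likelihood test, adjusted over all 14578 genes tested with a threshold of 0.05, 2 of the 10 were lower and 0 were higher. Over all genes tested, 20.4% were lower and 8.84% higher, so the 2 of 10 are a share near the background. At an unadjusted p under 0.05 by edgeR, Sst, Pyy, Cck, Gcg and Insl5 were lower, and no gene of the 10 was higher. The share of all genes at that looser threshold was not counted. The shares of 20.4% and 8.84% do not apply to it, so no excess among the 10 can be read from it. DESeq2 and limma-voom called 0 of the 10 higher and 4 and 5 lower. Among all genes they called 2107 and 2410 higher and 3140 and 3494 lower. The median log2 fold change of DSS+AP over DSS was -0.20 for the 10 genes and 0.02 for all genes tested. By edgeR, the lower count among the 10 was 1 when any of DSS 4 and DSS+AP 1, 3 and 4 was left out. Leaving out DSS+AP 2 made it 4, with 1 gene, Tph1, higher. In bulk colon, fewer cells of a type and less RNA per cell cannot be told apart.

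**Figure D1:**
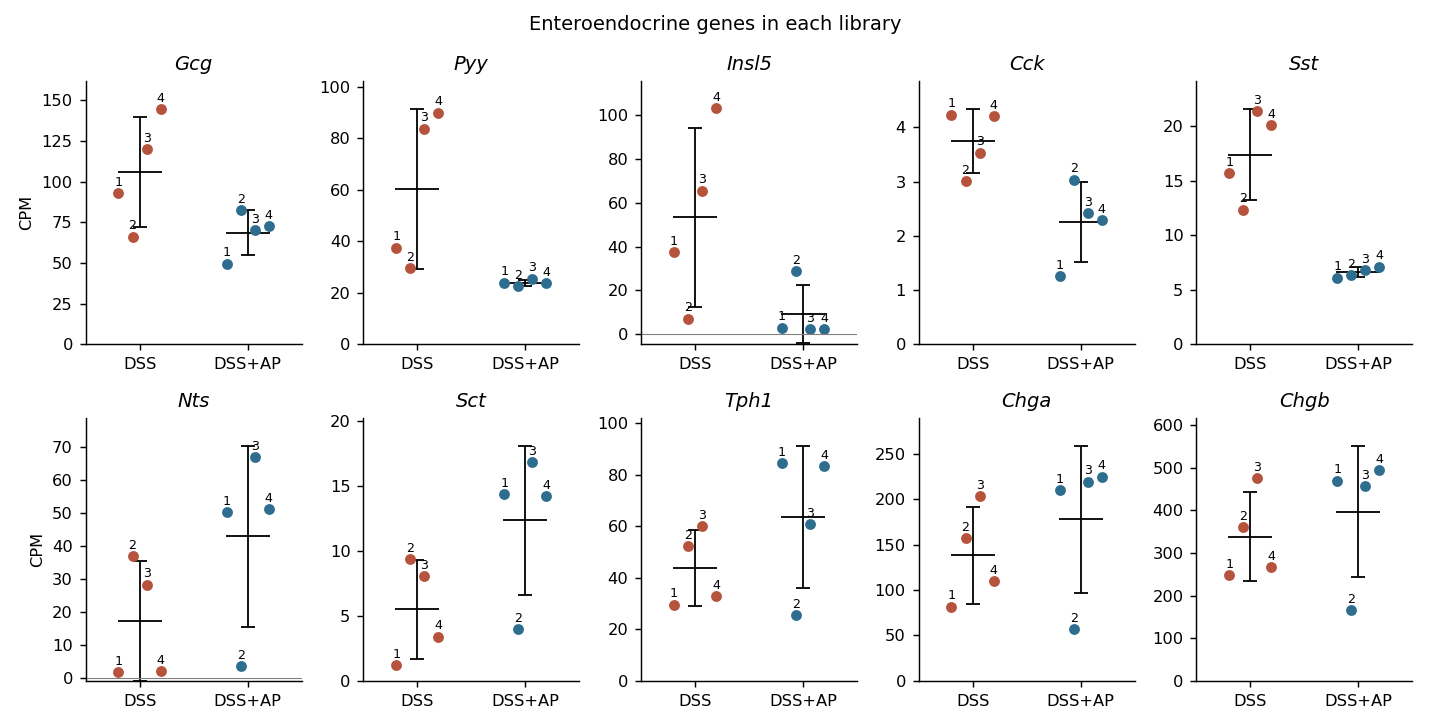
Level of each gene in CPM (vertical axes, linear) in the 4 DSS and the 4 DSS+AP libraries, with points numbered by replicate, horizontal bars for group means and error bars for 1 SD. Sst and Pyy are the genes whose groups do not overlap, while Nts spans 1.73 to 67.1 CPM.

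Sst, on chromosome 16 (23889573 to 23891342, GRCm38.p6), encodes somatostatin, the inhibitory peptide of D cells and of some neurons. Its level was 15.7, 12.4, 21.4 and 20.2 CPM in DSS 1 to 4 and 6.12, 6.36, 6.82 and 7.12 CPM in DSS+AP 1 to 4. The groups did not overlap, and the DSS+AP libraries lay within 1.16-fold of each other. The mean fell from 17.4 ± 4.17 to 6.61 ± 0.451 CPM (SD, n = 4 each), which is -1.40 ± 0.18 on the log2 scale (SE; adjusted p by edgeR = 0.00324). Leaving out each library gave -1.47 to -1.28, and without DSS 4 the change was -1.32 (edgeR adjusted p = 0.0114). Over all genes tested, 19.6% had every DSS+AP library below every DSS library and 10.8% every one above, and 2 of the 10 genes were below and 0 above.

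Pyy, on chromosome 11 (102106676 to 102107832), encodes peptide YY, an L cell hormone that slows transit and curbs appetite. It stood at 37.5, 29.4, 83.7 and 89.9 CPM in DSS and at 23.9, 22.5, 25.4 and 23.7 CPM in DSS+AP. Every DSS+AP library was below every DSS library, with a spread of 1.13-fold in DSS+AP against 3.06-fold in DSS. The mean fell from 60.1 ± 31.1 to 23.9 ± 1.18 CPM (SD, n = 4 each), with a log2 change of -1.33 ± 0.34 (SE; adjusted p by edgeR = 0.0193). The call did not hold when DSS 4 was left out (-1.07, adjusted p by edgeR = 0.0526), nor when DSS+AP 1, 3 or 4 was (adjusted p by edgeR = 0.0537, 0.0505 and 0.0503).

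Gcg, on chromosome 2 (62474530 to 62483653), encodes proglucagon, the source of glucagon-like peptides in L cells. Its level was 92.8, 66.2, 119.8 and 145 CPM in DSS and 49.6, 82.7, 69.99 and 72.5 CPM in DSS+AP. DSS 2 lay among the DSS+AP libraries, and the change of -0.62 ± 0.24 missed the threshold (adjusted p by edgeR = 0.0779). Leaving out DSS 2 made it pass (-0.73, adjusted p by edgeR = 0.0201), as it did with DESeq2 (0.0476) and with limma-voom (0.0192), and was -0.44 without DSS 4. There were 1.43 to 2.48 counts of Gcg per count of Pyy in DSS and 2.08 to 3.67 in DSS+AP.

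Insl5, on chromosome 4 (103017872 to 103027271), encodes insulin-like peptide 5, an orexigenic L cell hormone of the distal colon. It had the largest ratio of highest to lowest library among the 10 genes, 46.2, with 37.3, 7.18, 65.6 and 103 CPM in DSS and 3.12, 28.9, 2.23 and 2.23 CPM in DSS+AP. DSS 2 and DSS+AP 2 each lay apart from the rest of their group, and they kept the groups overlapping. The fitted change was -2.54 ± 1.03 (SE; edgeR adjusted p = 0.0931). Without DSS+AP 2 it was -4.39 (edgeR adjusted p = 0.0106), and without DSS 4 -2.001 (0.219).

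Cck, on chromosome 9 (121489824 to 121495694), encodes cholecystokinin, a hormone of I cells and a neuropeptide. It was low, with 51 to 76 counts per library in DSS and 21 to 52 in DSS+AP. Its level was 4.23, 3.002, 3.53 and 4.201 CPM in DSS and 1.26, 3.04, 2.42 and 2.29 CPM in DSS+AP. DSS 2 and DSS+AP 2 overlapped, and the change of -0.73 ± 0.26 missed the threshold (adjusted p by edgeR = 0.0659). Leaving out DSS+AP 2 made it pass (-0.91, adjusted p by edgeR = 0.0392), as it did with DESeq2 (0.0493) and with limma-voom (0.0216).

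The other 5 genes had higher means in DSS+AP, but none passed, and in each of them DSS+AP 2 was among the 3 lowest libraries. Chga, on chromosome 12 (102554941 to 102565027), encodes chromogranin A. It stood at 81.9, 157, 204 and 109.7 CPM in DSS and at 209.9, 56.7, 219 and 225 CPM in DSS+AP. DSS+AP 2 was the lowest of all 8 libraries, and its 3 group members were the highest. The change was 0.36 ± 0.43 (edgeR adjusted p = 0.543), and without DSS+AP 2 it was 0.66 (0.0989).

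Chgb, on chromosome 2 (132781642 to 132795079), encodes the related granule protein chromogranin B. Its 248, 359, 476 and 268 CPM in DSS and 469.6, 167, 457 and 493 CPM in DSS+AP followed Chga closely. There were 2.08 to 3.03 counts of Chgb per count of Chga in any library. The change of Chgb was 0.23 ± 0.34 (edgeR adjusted p = 0.626).

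Tph1, on chromosome 7 (46644641 to 46672537), encodes tryptophan hydroxylase 1, the rate-limiting enzyme of serotonin synthesis in enterochromaffin cells. Its level was 29.6, 52.3, 60.0 and 32.9 CPM in DSS and 84.4, 25.6, 60.9 and 83.3 CPM in DSS+AP. DSS+AP 2 was again the lowest library. The change was 0.54 ± 0.37 (edgeR adjusted p = 0.289), and leaving out DSS+AP 2 made it pass (0.81, edgeR adjusted p = 0.0465). Tph1 stayed at 0.278 to 0.451 counts per count of Chga in all 8 libraries.

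Nts, on chromosome 10 (102481756 to 102490418), encodes neurotensin, a peptide of N cells that slows motility. It was at 1.73, 37.0, 28.3 and 1.95 CPM in DSS and at 50.4, 3.44, 67.1 and 51.2 CPM in DSS+AP. DSS 1, DSS 4 and DSS+AP 2 were low, and the other 5 libraries were all at 28.3 CPM or more. The change of 1.32 ± 1.06 was close to its own error (edgeR adjusted p = 0.367).

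Sct, on chromosome 7 (141278329 to 141279174), encodes secretin, which stimulates bicarbonate release. It stood at 1.23, 9.36, 8.06 and 3.41 CPM in DSS and at 14.4, 3.97, 16.9 and 14.2 CPM in DSS+AP. The same 3 libraries, DSS 1, DSS 4 and DSS+AP 2, were the lowest. The change was 1.17 ± 0.60 (edgeR adjusted p = 0.169).

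**Figure D2:**
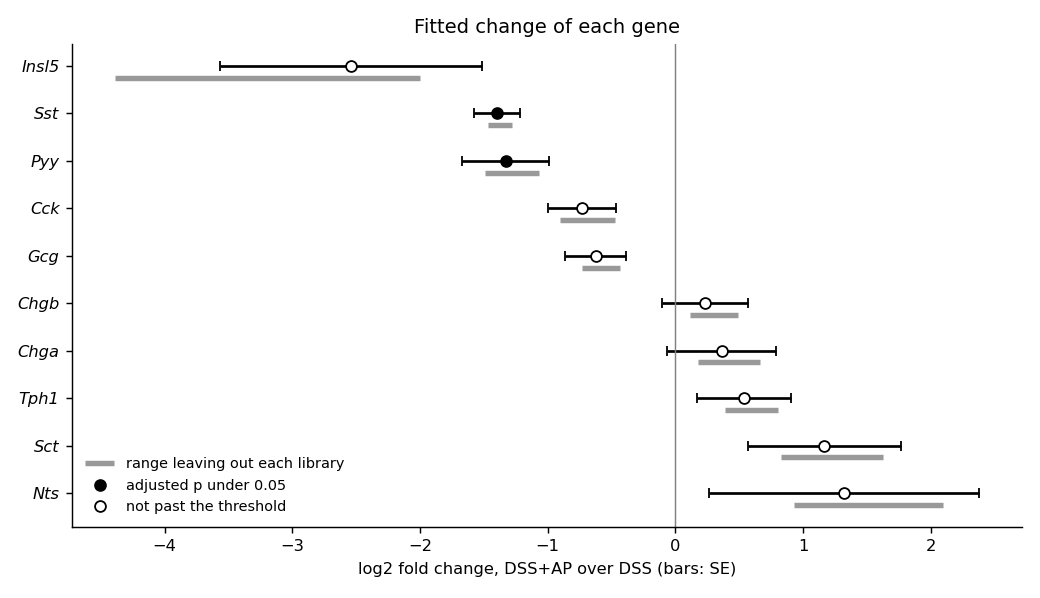
Fitted log2 fold change of DSS+AP over DSS for each gene (horizontal axis, points with SE bars), filled where the edgeR adjusted p is under 0.05, with grey bars for the range when each library is left out in turn. Sst and Pyy are filled, and Insl5 has the longest bar, from -4.39 to -2.001.

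Levels of different genes were compared per kilobase of exon (GENCODE M21, GRCm38). In DSS the order was Chgb at 123 ± 38.0 CPM per kilobase (SD, n = 4), Gcg at 97.3 ± 31.1, Pyy at 96.2 ± 49.7, Insl5 at 73.6 ± 56.4 and Chga at 73.3 ± 28.5. Sst at 24.2 ± 5.78, Nts at 13.8 ± 14.5, Sct at 10.3 ± 7.18, Tph1 at 9.19 ± 3.11 and Cck at 3.22 ± 0.508 followed. Neighbours in this order differed by less than the larger of their SDs, except Chga and Sst, and Tph1 and Cck. In DSS+AP the granins led, Chgb at 144.7 ± 56.2 and Chga at 94.4 ± 42.9 CPM per kilobase, before Gcg at 63.1 ± 12.7 and Pyy at 38.2 ± 1.89. Insl5 was at 12.6 ± 18.2 and Sst at 9.16 ± 0.626, below Nts at 34.5 ± 22.0, Sct at 23.2 ± 10.7 and Tph1 at 13.4 ± 5.79. Cck was the lowest in both groups, at 1.94 ± 0.634 in DSS+AP.

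Over the libraries the 10 genes fell into a tight and a looser group, which were noticed in these values. After each group's mean log2 CPM was subtracted, Chga, Chgb, Tph1, Nts and Sct varied together, with Pearson coefficients from 0.84 for Sct and Chgb to 0.99 for Chga and Chgb. These are descriptions over 8 libraries without a test, and they rest on DSS 1, DSS 4 and DSS+AP 2 being low. Pyy and Sst varied together as well (0.94), as did Gcg and Sst (0.84), Gcg and Pyy (0.78) and Gcg and Insl5 (0.77). In DSS+AP, Pyy and Sst spread only 1.13-fold and 1.16-fold, so their coefficient rests mostly on the DSS libraries. Cck was nearer to Gcg (0.73) than to Pyy (0.16) or Sst (0.32). Insl5 was at 0.54 with Sst, 0.56 with Cck and 0.57 with Pyy. Insl5 and Nts ran against each other (-0.76). The ratio of Insl5 to Nts counts was 21.6, 0.194, 2.32 and 52.9 in DSS and 0.0619, 8.39, 0.0333 and 0.0436 in DSS+AP. Against 13076 genes whose log2 CPM averaged 1 or more, those most like Chga by this measure were Hsdl2 (0.997), Fgl2 (0.995) and Chgb (0.992), and those most like Gcg were Atp13a2 (0.977), Mgl2 (0.966) and Ksr1 (0.966).

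**Figure D3:**
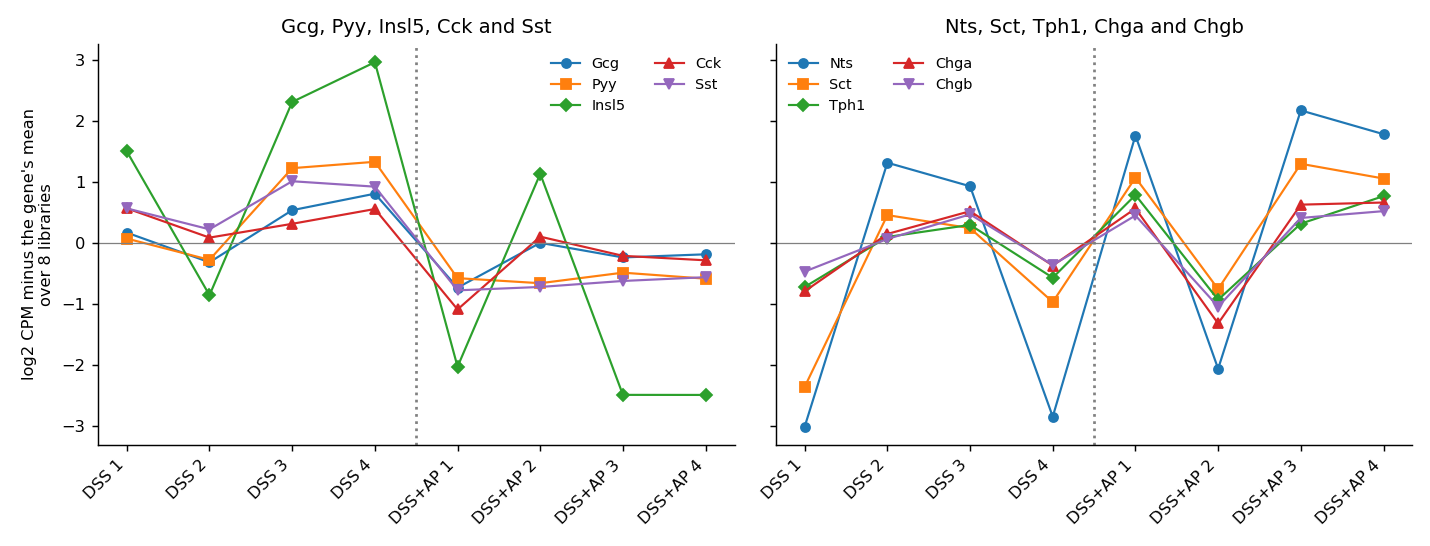
Log2 CPM of each gene minus its mean over the 8 libraries (vertical axis) for Gcg, Pyy, Insl5, Cck and Sst (left) and Nts, Sct, Tph1, Chga and Chgb (right), where lines only join points of a gene. DSS 1, DSS 4 and DSS+AP 2 are the low points of all 5 genes on the right, and Insl5 runs from the top in DSS 4 to the bottom in DSS+AP 3 and DSS+AP 4.

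Colon position was looked at through Hox genes, which differ along the length of the gut. The mean of the 13 tested anterior Hox genes varied with Nts, Chga, Chgb, Tph1 and Sct. Its coefficients, with group means removed, were 0.98 for Nts, 0.94 for Chga and Chgb, 0.93 for Tph1 and 0.90 for Sct, and -0.73 for Insl5. The mean of the 8 tested posterior Hox and distal colon genes followed the 10 genes only loosely, with coefficients from -0.34 for Cck to 0.52 for Pyy, and 0.37 for Insl5, 0.15 for Nts, 0.16 for Chga and 0.14 for Chgb. These are descriptions over 8 libraries. Hoxb13, the hindmost gene of its Hox cluster, was at 32.7, 4.12, 51.6 and 123 CPM in DSS and at 0.720, 13.1, 0 and 0.248 CPM in DSS+AP, nearly the order of the libraries by Insl5 (Spearman's rho 0.976 over 8 libraries, against 0.762 for the posterior list's mean, both descriptions). Hoxb6, a more anterior gene of the same cluster, was at 2.12 CPM in DSS 1, 2.68 in DSS 4 and 4.61 in DSS+AP 2, and at 30.7 to 58.6 CPM in the 5 libraries with high Nts. The brush-border enzyme gene Sis, typical of small intestine, was at 0.487 to 0.642 CPM in those 3 libraries and at 9.54 to 43.2 CPM in the other 5. Hoxb13, Hoxb6 and Sis were picked from the lists of position and small intestine genes after their values were seen. In the whole list of posterior Hox and distal colon genes, 0 of 8 tested were higher or lower by edgeR. Without DSS 2 or DSS+AP 2 there were 2 lower and 1 higher, and 1 was lower when DSS+AP 1, 3 or 4 was left out. Its mean log2 CPM was between 3.26 and 4.50 for DSS mice and between 2.26 and 3.27 for DSS+AP mice. The list's summed level went the other way, from a mean of 992 CPM in DSS to 1576 CPM in DSS+AP. It ranged from 673 to 1266 CPM in DSS and from 1017 to 1926 CPM in DSS+AP, so the list was not uniformly lower. In the anterior Hox list, 0 of 13 passed (1 was lower without DSS 2), with means between 1.59 and 3.01 for DSS mice and between 1.39 and 3.03 for DSS+AP mice. With the posterior list's mean as a covariate, Sst changed by -1.16 (edgeR adjusted p = 0.0893) and Pyy by -0.60 (0.577), and 0 of all genes passed. The groups barely overlapped in that mean, so this fit can hardly tell its part from that of the group. The part of colon position in the hormone results was not tested.

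**Figure D4:**
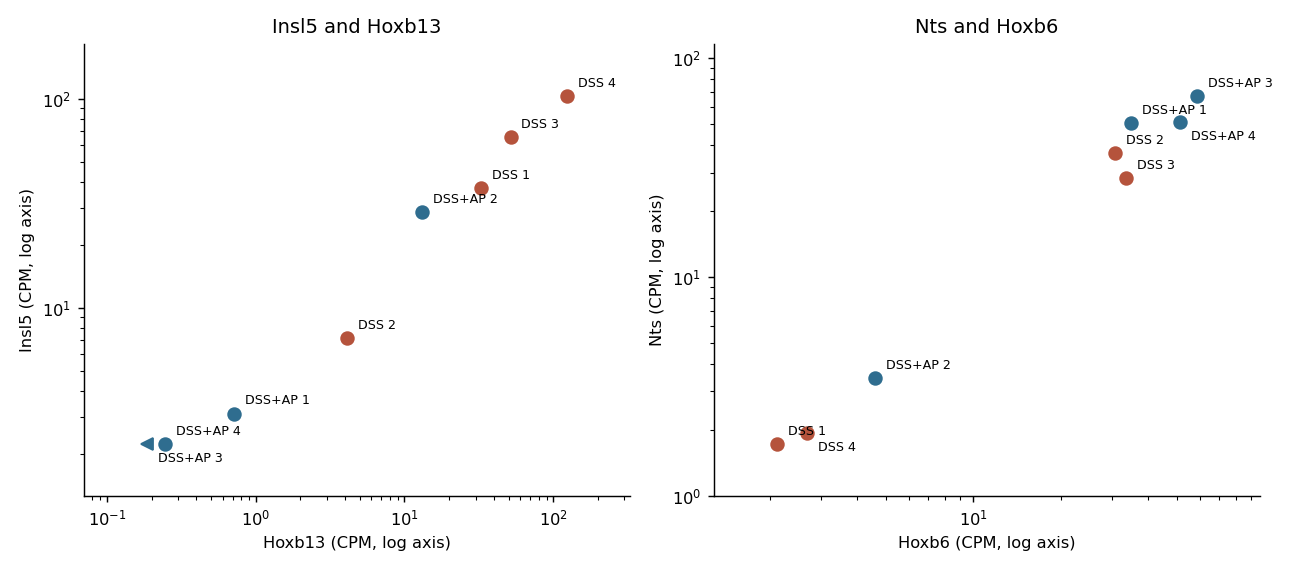
Insl5 against Hoxb13 (left) and Nts against Hoxb6 (right), in CPM on log axes, for each library (red DSS, blue DSS+AP), with a triangle where Hoxb13 was below 3 counts and drawn at that floor. Insl5 and Hoxb13 are highest in DSS 4, and Nts and Hoxb6 are low in DSS 1, DSS 4 and DSS+AP 2.

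Transcription factors that specify hormone cells mostly did not pass, with 2 higher and 2 lower of 17 tested (20 listed) and a median log2 fold change of -0.06. For this and the lists below, the shares over all genes tested were 8.84% higher and 20.4% lower. Neurog3, the factor that commits progenitors to the endocrine fate, rose from 0.690 ± 0.259 to 1.74 ± 0.336 CPM (SD, n = 4 each; edgeR adjusted p = 0.0157). Foxa1, a factor of secretory and endocrine epithelium, rose from 76.2 ± 16.7 to 106 ± 2.72 CPM (adjusted p by edgeR = 0.0339). Foxa1 did not pass when DSS 1 or 4, or DSS+AP 3 or 4, was left out (largest edgeR adjusted p = 0.0871). Etv1, also expressed by enteric neurons and pacemaker cells, fell from 22.3 ± 1.195 to 10.8 ± 1.58 CPM (adjusted p by edgeR = 0.00320). The later factors Neurod1, Insm1 and Nkx2-2, named after their values were seen, had log2 fold changes of 0.03, 0.21 and -0.03 (edgeR adjusted p = 0.953, 0.559 and 0.956). Not all others were flat. Hhex, the other lower gene of the list, was at -0.86 (edgeR adjusted p = 0.0404). Isl1 was at -1.24 and just missed the threshold (edgeR adjusted p = 0.0501). Both had overlapping groups and were also named after their values were seen. Leaving out DSS 1 or 4, or DSS+AP 3 or 4, gave 1 higher and 1 lower gene in this list, and leaving out DSS+AP 1 gave 2 and 1.

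In the list of prohormone processing and granule cargo, 13 genes were lower and 0 higher of 17 tested, with a median of -0.89. Scg2, the granin secretogranin II, fell from 28.4 ± 5.85 to 8.17 ± 2.40 CPM (SD, n = 4 each; edgeR adjusted p = 0.00329). Ptprn, a membrane protein of dense-core granules, fell from 20.2 ± 4.64 to 8.56 ± 0.862 CPM (adjusted p by edgeR = 0.00365). The list also holds Kctd12, an auxiliary subunit of GABA-B receptors, which fell from 141 ± 3.92 to 86.1 ± 12.9 CPM (adjusted p by edgeR = 0.00357). Of the 2 prohormone convertases, named after their values were seen, Pcsk2 fell by 1.92 on the log2 scale (edgeR adjusted p = 0.00478), while Pcsk1, the convertase of L cells, was at 0.48 (0.249). Leaving out each library gave 10 to 13 lower genes. Regulated exocytosis genes were lower in 10 and higher in 2 of 22, with a median of -0.25, and the higher ones numbered 0 without DSS 4 or DSS+AP 3 and 1 without DSS+AP 1 or DSS+AP 4. Syt13, a synaptotagmin, fell from 33.8 ± 5.36 to 14.0 ± 0.916 CPM, the SNARE gene Snap25 from 19.5 ± 4.57 to 6.47 ± 0.927 CPM, and the calcium channel gene Cacna1c from 42.8 ± 9.96 to 13.5 ± 3.65 CPM (adjusted p by edgeR = 0.00320, 0.00320 and 0.00324).

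Many of these granule and vesicle genes are neuronal as well, and markers of enteric neurons and of other cells of the gut wall were lower too. All 17 of 17 neuron markers tested were lower, and their summed level was 222 to 413 CPM in DSS and 62.7 to 109.9 CPM in DSS+AP. Lower markers were also counted for enteric glia (6 of 6, median -1.58), fibroblasts (7 of 7, -1.25), leukocytes (7 of 8, -1.0014) and smooth muscle (9 of 10, -0.87). Summed levels were 32.4 to 61.5 CPM in DSS against 8.25 to 14.8 CPM in DSS+AP for glia, 2356 to 5475 against 1260.2 to 1949.7 CPM for fibroblasts, 408 to 924 against 292 to 426 CPM for leukocytes and 2929.9 to 4641 against 1462 to 2748 CPM for smooth muscle. Snap25 and Vip stand on the neuron list and on a hormone list. Epithelial markers were higher in 5 and lower in 1 of 15 tested, with a mean log2 CPM between 9.501 and 9.79 for DSS mice and between 9.77 and 9.91 for DSS+AP mice. That higher count was 7 without DSS 2, 3 without DSS 1, DSS+AP 1 or DSS+AP 4, and 1 without DSS 4 or DSS+AP 3. With the epithelium mean as a covariate, 0 of the 10 hormone and granule genes passed, with Sst at -1.48 (adjusted p by edgeR = 0.0543) and Pyy at -1.56 (0.123), and Chga, Chgb, Tph1, Nts and Sct had estimates below 0. With the mean of smooth muscle markers, 0 of the 10 passed either, with Sst at -1.30 (adjusted p by edgeR = 0.329) and Pyy at -1.29 (0.435). Among all genes, the epithelium mean left 33 higher and 34 lower, and the smooth muscle mean 0 and 0. The smooth muscle mean was 7.73 to 8.30 for DSS mice and 6.69 to 7.61 for DSS+AP mice. As the groups did not overlap in it, that fit cannot tell its part from that of the group. In the epithelium mean the groups overlapped only from 9.77 to 9.79. The fit with that mean can hardly tell its part from that of the group either. The part of neurons, glia, fibroblasts and leukocytes in the gene lists was not tested. Sst, Cck, Chga and Chgb are expressed by enteric neurons too, and the part of neurons in their levels was not tested either.

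Around serotonin, 4 genes were lower and 1 higher of 10 tested, with a median of -0.25, against 20.4% lower and 8.84% higher over all genes. Trpa1, an irritant-sensing channel of enterochromaffin cells and nerves, fell from 10.5 ± 1.23 to 5.86 ± 1.05 CPM (SD, n = 4 each; edgeR adjusted p = 0.00700), and the touch channel gene Piezo2 from 16.1 ± 6.01 to 4.5996 ± 2.42 CPM (0.0107). Maoa, which degrades serotonin, rose from 565 ± 113 to 996 ± 273 CPM (adjusted p by edgeR = 0.0240), with overlapping groups. The lower count was 2 when DSS 1 or 3, or DSS+AP 2, 3 or 4, was left out. Maoa did not pass when DSS 3 or 4, or DSS+AP 3 or 4, was left out (largest edgeR adjusted p = 0.0703). Ddc, which completes serotonin synthesis and was named after its value was seen, was at -0.15 (edgeR adjusted p = 0.207).

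Other gut peptides were lower in 5 and higher in 0 of 11 tested, with a median of -1.09, and the 5 were peptides known from enteric neurons. Without DSS+AP 2, 6 were lower and 2 higher. Among all genes tested, 20.4% were lower and 8.84% higher with all libraries. Tac1, the substance P gene, fell from 45.8 ± 18.4 to 9.78 ± 1.63 CPM (SD, n = 4 each), Penk, the enkephalin gene, from 32.9 ± 15.3 to 6.23 ± 2.78 CPM, and the galanin gene Gal from 11.8 ± 5.34 to 3.05 ± 0.883 CPM (adjusted p by edgeR = 0.00365, 0.00439 and 0.00539). The incretin gene Gip had 0 counts in all 8 libraries, which allows at most 0.167 to 0.186 CPM. The ghrelin gene Ghrl stayed at 0.294 CPM or less.

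In the list of receptors for these hormones, which also holds the peptidase gene Dpp4, 7 genes were lower and 1, Dpp4, was higher of 17 tested (median -0.53), and the other 13 of the 30 listed were too low to test, among them Glp1r, Ntsr1, Sctr and the Insl5 receptor gene Rxfp4. The higher count was 2 without DSS 2 or DSS+AP 2. Of all genes tested with all libraries, 20.4% were lower and 8.84% higher. The serotonin receptor genes Htr2b, of smooth muscle and pacemaker cells, and Htr3a, of nerves, fell from 5.57 ± 0.900 to 1.72 ± 0.651 CPM and from 10.96 ± 3.98 to 2.25 ± 1.004 CPM (SD, n = 4 each; edgeR adjusted p = 0.00447 and 0.00474). Dpp4, whose product inactivates glucagon-like peptide 1, rose from 35.4 ± 5.52 to 54.1 ± 2.59 CPM (adjusted p by edgeR = 0.00577). In the list of nutrient and metabolite sensing, 7 genes were lower and 1 higher of 17 tested (median -0.44). That list also holds the receptor, cyclase and channel genes named next, which are not nutrient sensors themselves. Calcrl, the calcitonin receptor-like receptor, fell from 35.4 ± 5.004 to 17.6 ± 1.49 CPM, the adenylyl cyclase gene Adcy5 from 34.3 ± 5.71 to 17.2 ± 1.96 CPM and the sodium channel gene Scn3a from 6.75 ± 1.32 to 3.09 ± 0.276 CPM (adjusted p by edgeR = 0.00320, 0.00344 and 0.00415). The higher sensing gene was the glucose transporter gene Slc5a1 at 0.68 (edgeR adjusted p = 0.0379), named after its value was seen, with 0 higher when DSS 4 or DSS+AP 1, 3 or 4 was left out and 2 when DSS 2 or 3 was.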

How the data were processed

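RNA of 8 colon samples was sequenced. The authors deposited estimated counts for each gene. GRCm38.p6, RSEM 1.2.8, Bowtie2 2.2.5 and HISAT2 2.1.0 are named, without roles, per the submitters' processing notes. Use of strand: not given in the sources used here. The counts of the 10 genes were whole numbers, and no exon base of theirs is shared with another gene in GENCODE M21. Counts were rounded, filtered with filterByExpr and scaled with TMM factors, and edgeR 4.0.16 in R 4.3.3 compared DSS+AP with DSS with robust quasi-likelihood F tests, two-sided, without covariates, with Benjamini-Hochberg adjustment over 14578 genes. Log2 CPM used a prior count of 2. P-values measure the spread between mice, and the floor of 3 counts covers counting error only. Alternatives were DESeq2 1.42.0, limma-voom (limma 3.58.1), other scaling factors and filters, no robust estimation, a replicate block, 3 covariates and leaving out each library. From each list up to 3 genes past the threshold were named by smallest p. Genes and lists were chosen with earlier results of these data known. Steps were tested on simulated data. Figures were drawn with matplotlib 3.10.9.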

Additional observations from a re-analysis of the deposited data

Results flagged for a closer look

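In a group of 4 libraries, a lowest or highest value was looked at again where its gap to the nearest other value took more than 0.829 of the group's range. Of the 20 groups examined for the 10 genes, 3 met this, and chance flags about 1 in 20 when groups are independent. These groups are not independent, as the genes were measured in the same libraries and Chga and Chgb varied together (0.99). The 3 flags can therefore not be set against that rate. All 3 were in library DSS+AP 2. Insl5 was at 28.9 CPM there, against at most 3.12 CPM in the other DSS+AP libraries. Chga was at 56.7 CPM, against at least 209.9 CPM, and Chgb at 167 CPM, against at least 457 CPM. The causes were not tested.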

How the results depend on the processing

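The direction of all 10 genes was the same with other scaling, filters, tools, the block and without each library. The epithelium mean as a covariate turned Sct to -0.67, Nts to -1.92, Tph1 to -0.41, Chga to -0.79 and Chgb to -0.65, and the smooth muscle mean turned Sct to -1.02, Nts to -2.46, Tph1 to -0.53, Chga to -1.26, Chgb to -0.90 and Insl5 to 0.45. The cause was not tested. Of the 10 genes, 4 were lower with DESeq2, 5 with limma-voom and 0 with the epithelium, smooth muscle or posterior Hox mean as a covariate. Without each library 1 to 4 were lower and 0 to 1 higher. Among all genes, 1950 were higher without a filter, 2107 with DESeq2, 2410 with limma-voom and 525 to 2101 without each library (2101, 847 and 525 when DSS 2, 3 and 4 were left out, 565 and 762 when DSS+AP 3 and 4 were). Lower among all genes were 3140 with DESeq2, 3494 with limma-voom and 1985 to 3086 without each library. The epithelium covariate left 33 higher and 34 lower, and the others 0 and 0. Of the other enteroendocrine genes, 111 tested in 7 lists, 7 were higher and 48 lower. With limma-voom 11 were higher. Without each library 2 to 10 were higher (2 without DSS 4 or DSS+AP 3, 3 without DSS+AP 4) and 36 to 47 lower. The epithelium covariate left 0 higher and 1 lower, and the others 0 and 0. Same-numbered libraries did not deviate together, with correlations of -0.45 to 0.36 and 1 of 4 DSS libraries nearest to its own number. The replicate block gave 582 higher and 1967 lower among all genes, 2 higher among the other enteroendocrine genes, and 2 lower among the 10. Under the block 0 transcription factors were higher and 1 lower, with Neurog3 at 1.34 (adjusted p by edgeR = 0.0550), Foxa1 at 0.50 (0.0536) and Maoa at 0.80 (0.0984), and the other 18 genes named by the rule passed. At these depths Cck had at least 21 counts and Sct at least 22 in any library.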
